A study of Mus musculus with 12 samples.

Results

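Hormones, secreted factors and receptors of fat tissue, 10 genes in all, were followed in RNA of mouse sciatic nerve. They were chosen by symbol in the study's tables of differences and joined by Ensembl identifier to its table of read counts, which lists 43432 genes, and the values that chose them came from the same 12 libraries described here. Their differences between groups are therefore given as a description, without a p-value. Each of the 10 passed the filter on low counts, which 17257 genes passed. The secreted factors were *Lep*, *Adipoq*, *Retn*, *Cfd*, *Rarres2*, *Apln* and *Ccdc80*, and the receptors were *Lepr*, *Adipor2* and *Cmklr1*.

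The study examined *Mtmr2* KO mice, a model of the demyelinating neuropathy CMT4B1, and asked in its RNA-seq whether niacin changed gene expression in their nerves. There were 3 groups of 4 mice, 1 library per mouse, all taken at 1 month of age. WT control mice (*Mtmr2* wt/wt) and *Mtmr2* KO mice (*Mtmr2* -/-) are labelled as having received no treatment, whereas the study's text in one place calls the mutants without niacin vehicle treated. Niacin-treated *Mtmr2* KO mice (*Mtmr2* -/-) received niacin by intraperitoneal injection at 120 mg/kg from day 10 to day 21, and then Niacin-SR, a slow release form, by gavage until day 30. The mutants lack *Mtmr2* in every cell, not in Schwann cells alone, and no treated WT control libraries were analysed here. Libraries are named by the numbers in their labels, 4497 to 4500 for WT control, 4501 to 4504 for *Mtmr2* KO and 4505 to 4508 for niacin-treated *Mtmr2* KO.

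Fat tissue speaks to other organs through secreted proteins called adipokines. Leptin, encoded by *Lep*, reports the size of fat stores and acts through the receptor *Lepr*, which signals through the kinase JAK2 and STAT proteins. Adiponectin, encoded by *Adipoq*, acts through *Adipor1* and *Adipor2* and favours the use of fatty acids. *Retn* encodes resistin, *Cfd* encodes adipsin, the complement factor D that starts the alternative complement pathway, and *Rarres2* encodes chemerin, whose signalling receptor on leukocytes and fat cells is *Cmklr1*. *Apln* encodes apelin, a peptide of endothelial and fat cells that acts through *Aplnr*, and *Ccdc80* encodes a secreted matrix protein abundant in white fat. The sheath of the sciatic nerve contains fat cells, so that RNA of a whole nerve holds their transcripts beside those of Schwann cells, fibroblasts, vessels and immune cells.

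Totals ranged from 20763951 to 33191106 counts per library. *Mtmr2* itself, the targeted gene, was at 128 to 161 CPM (counts scaled to a common library size) in WT control, at 69.5, 71.6 and 84.7 CPM in 3 *Mtmr2* KO libraries and at 66.8 to 73.5 CPM in the niacin-treated libraries, while the library labelled *Mtmr2* KO 4503 had 143 CPM, within the WT control range. The library labelled *Mtmr2* KO 4502 stood apart in another way. Its protein-coding genes with transcripts under 1500 bases had a median log2 difference from the WT control mean of 0.52, and those over 5000 bases had −0.23. The niacin-treated libraries leaned the same way, at 0.16 to 0.37 and −0.17 to −0.07, against −0.09 to 0.16 and −0.12 to 0.06 in WT control and −0.13 to 0.17 and −0.10 to 0.08 in the other 3 *Mtmr2* KO libraries. For the 10 genes, differences of *Mtmr2* KO from WT control are given below with and without 4502 and 4503. Medians and counts over marker lists are given with all libraries only. Judged by *Xist* and *Ddx3y*, each group held 3 males and 1 female, and the females were 4498, 4502 and 4506. Markers of myelinating Schwann cells, the main cells of this tissue, summed to 91378 to 115534 CPM in WT control, 87369 to 120738 CPM in *Mtmr2* KO and 63399 to 104013 CPM with niacin. None of these 10 Schwann cell markers was at 0 in any library. All 10 markers had a lower mean with niacin than in *Mtmr2* KO, at a median log2 fold change of −0.56 with none called. Their part in the niacin values below was not tested.

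The genes lie apart from each other in the mouse genome (GRCm38, coordinates from GENCODE M21). *Lep* (ENSMUSG00000059201) is on chromosome 6 from 29060220 to 29073877, *Adipoq* (ENSMUSG00000022878) on chromosome 16 from 23146536 to 23158028, *Retn* (ENSMUSG00000012705) on chromosome 8 from 3655770 to 3660110 and *Cfd* (ENSMUSG00000061780) on chromosome 10 from 79890853 to 79892655, all on the forward strand. The promoters of these 4 fat-cell genes are shown because their RNA parted in the *Mtmr2* KO libraries, where 4502 was high in *Adipoq*, *Retn* and *Cfd* and not in *Lep*. Each sequence is the 250 bases before the RefSeq start site (GRCm38.p6), written in the direction of transcription, at chr6:29059971-29060220, chr16:23146286-23146535, chr8:3655520-3655769 and chr10:79890603-79890852.
Lep: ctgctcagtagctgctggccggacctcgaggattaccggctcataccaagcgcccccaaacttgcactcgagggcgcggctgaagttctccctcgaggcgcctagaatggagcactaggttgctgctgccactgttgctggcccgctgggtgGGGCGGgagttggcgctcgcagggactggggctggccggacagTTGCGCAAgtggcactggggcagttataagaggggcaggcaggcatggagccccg
Adipoq: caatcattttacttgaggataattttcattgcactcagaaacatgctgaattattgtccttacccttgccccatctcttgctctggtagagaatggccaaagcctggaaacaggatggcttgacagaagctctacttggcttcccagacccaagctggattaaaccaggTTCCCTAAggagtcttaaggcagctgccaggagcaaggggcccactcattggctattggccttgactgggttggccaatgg
Retn: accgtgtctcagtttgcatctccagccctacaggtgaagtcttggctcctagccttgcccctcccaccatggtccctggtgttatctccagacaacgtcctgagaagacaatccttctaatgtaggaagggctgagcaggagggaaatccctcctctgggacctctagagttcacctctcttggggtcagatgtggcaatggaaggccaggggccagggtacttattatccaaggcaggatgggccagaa
Cfd: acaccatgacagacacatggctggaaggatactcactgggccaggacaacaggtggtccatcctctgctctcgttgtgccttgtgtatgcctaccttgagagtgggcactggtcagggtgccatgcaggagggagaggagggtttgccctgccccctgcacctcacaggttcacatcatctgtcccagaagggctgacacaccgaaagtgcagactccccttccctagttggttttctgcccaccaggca
Capitals mark matches to 5 motifs searched on both strands, the TATA box TATAAA, the half-site pair of C/EBP factors TTNNGNAA (TTNCNNAA on the other strand), the direct repeat bound by PPAR factors (the DR1 motif), the GC box GGGCGG and the E-box CACGTG. Among 32851 promoters of the same length, 12.4%, 36.8%, 0.338%, 32.7% and 6.02% held them. The *Lep* promoter held TTGCGCAA at −55 to −48 and a GC box at −98 to −93, counted from the start site, and the *Adipoq* promoter held TTCCCTAA at −81 to −74. No match was in these windows of *Retn* and *Cfd*. RefSeq promoters matched 8 of the 10 genes, all but *Rarres2* and *Ccdc80*.

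*Lep* had the largest difference of the 10 genes between *Mtmr2* KO and WT control, although *Apln*, at −1.62 on the log2 scale, exceeded it when 4501 was left out (−2.43, with −2.17 for *Lep*). *Lep* was also the most even of the fat-cell hormones within the *Mtmr2* KO group. The WT control libraries 4497 to 4500 had 39.6, 77.7, 39.9 and 53.9 CPM. The *Mtmr2* KO libraries 4501 to 4504 had 16.3, 12.7, 9.17 and 13.6 CPM, and the niacin-treated libraries 4505 to 4508 had 30.1, 66.2, 55.9 and 32.4 CPM. Every *Mtmr2* KO library was below every library of both other groups, which overlapped each other. As compared with WT control, *Lep* was 4.08-fold lower in *Mtmr2* KO, which is −2.03 (SE 0.29, n = 4 per group) on the log2 scale. It was 3.57-fold higher with niacin than in *Mtmr2* KO, 1.84 (SE 0.29) on the log2 scale, and −0.19 (SE 0.28) from WT control. Without 4502 the log2 fold change between *Mtmr2* KO and WT control was −2.03, and without 4503 it was −1.89. The highest *Mtmr2* KO library had 1.78 times the lowest, against 7.34 times for *Adipoq*.

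*Adipoq*, *Cfd* and *Retn*, the other hormones that fat cells make in quantity, were low in 3 *Mtmr2* KO libraries and high in 4502. *Adipoq* was at 262, 292, 217 and 297 CPM in WT control, at 125, 443, 113 and 60.4 CPM in *Mtmr2* KO and at 201, 288, 349 and 360 CPM with niacin. *Cfd* was at 1372, 1337, 1183 and 1604 CPM, then 818, 2396, 417 and 316 CPM, then 1118, 1428, 1821 and 2112 CPM in the same order. *Retn* was at 41.2, 54.3, 32.6 and 46.9 CPM, then 29.1, 89.9, 13.8 and 24.3 CPM, then 40.9, 79.9, 74.5 and 113 CPM. In each of the 3 genes library 4502 exceeded all 4 WT control libraries and the remaining 3 *Mtmr2* KO libraries lay below all of them. The log2 fold changes between *Mtmr2* KO and WT control were accordingly small beside their errors, at −0.53 (SE 0.45) for *Adipoq*, −0.48 (SE 0.48) for *Cfd* and −0.16 (SE 0.45) for *Retn*. Without 4502 they were −1.43, −1.42 and −0.97, and the 3 remaining *Mtmr2* KO libraries overlapped neither other group in any of these genes. Without 4503 they were −0.35, −0.23 and 0.12. With niacin versus *Mtmr2* KO the log2 fold changes were 0.69 (SE 0.45) for *Adipoq*, 0.72 (SE 0.49) for *Cfd* and 0.97 (SE 0.46) for *Retn*, which became 1.57, 1.63 and 1.76 without 4502 and 0.52, 0.46 and 0.69 without 4503. The transcripts of *Cfd*, *Retn* and *Adipoq* are short, with 922, 1139 and 1292 bases for the longest, and medians of short genes were highest in 4502 and above 0 in all niacin-treated libraries. The part of transcript length in these values was not tested.

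**Figure D1:**
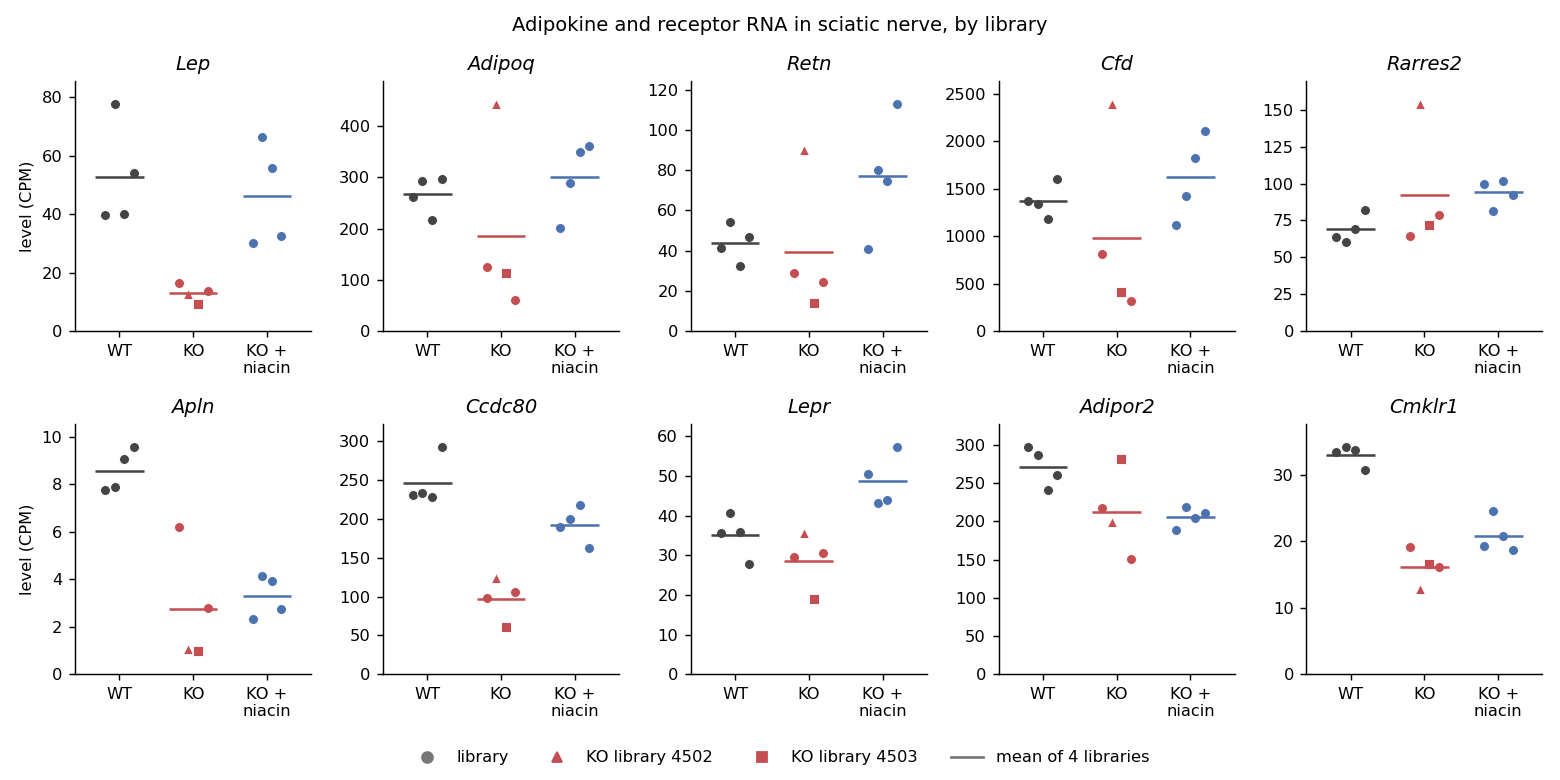
Level of each of the 10 genes in CPM (linear axes from 0) in 12 libraries, 4 of each group, each point 1 mouse and each line the mean of 4. Lep was low in all 4 Mtmr2 KO libraries (9.17 to 16.3 CPM), whereas Adipoq, Cfd, Retn, Rarres2, Ccdc80 and Lepr were highest of their group in library 4502 (triangle).

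*Ccdc80*, the matrix protein gene of white fat, followed *Lep* rather than *Adipoq* across the groups. It was at 230, 233, 228 and 292 CPM in WT control, 98.1, 124, 60.4 and 106 CPM in *Mtmr2* KO and 189, 199, 217 and 162 CPM with niacin. Within *Mtmr2* KO it was highest in 4502, as *Adipoq* was. No group overlapped another, with niacin-treated libraries between *Mtmr2* KO and WT control. The log2 fold change was −1.34 (SE 0.19) in *Mtmr2* KO versus WT control, 0.99 (SE 0.19) with niacin versus *Mtmr2* KO and −0.36 (SE 0.19) with niacin versus WT control. Without 4502 the first of these was −1.48 and without 4503 it was −1.17.

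*Apln* was the least abundant of the 10 genes and lay below WT control in both mutant groups. WT control libraries had 7.78, 7.87, 9.08 and 9.57 CPM, *Mtmr2* KO libraries 6.20, 1.08, 0.993 and 2.79 CPM, and niacin-treated libraries 2.35, 4.16, 3.93 and 2.75 CPM. All 8 mutant libraries were under the lowest WT control library, and the mutant groups overlapped each other. The log2 fold change from WT control was −1.62 (SE 0.45) in *Mtmr2* KO and −1.38 (SE 0.45) with niacin, and the difference between the mutant groups was 0.25 (SE 0.46). With 1 library left out the first ran from −2.43, without 4501, to −1.33, without 4503, and was −1.37 without 4502. The lowest values rest on 24 and 31 counts, in 4502 and 4503. Without 4502 the difference between the mutant groups was −0.02 and without 4503 it was −0.04. Endothelial cells are a source of apelin, and 8 of 8 endothelial markers had a lower mean in *Mtmr2* KO than in WT control. Of them 3 did not overlap, beside 5.46% of all genes lower without overlap. The markers summed to 576 to 653 CPM in WT control, 234 to 668 CPM in *Mtmr2* KO and 269 to 443 CPM with niacin. This sum was lowest in 4502 and highest in 4503, and *Apln* had its lowest values in both. None of the 8 markers was at 0. Their part in the values of *Apln* was not tested.

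*Rarres2*, the chemerin gene, was the only 1 of the 10 with a higher mean in *Mtmr2* KO than in WT control, and that difference came from 1 library. WT control had 64.0, 60.3, 69.3 and 82.2 CPM, *Mtmr2* KO 64.6, 154, 72.1 and 78.7 CPM, and the niacin-treated group 100, 81.5, 102 and 92.3 CPM. The groups overlapped in all 3 comparisons. The log2 fold change in *Mtmr2* KO versus WT control was 0.42 (SE 0.23), and without 4502, the library at 154 CPM, it was 0.06. Without 4503 it was 0.52. Exons of *Rarres2* (ENSMUSG00000009281, chromosome 6 from 48569696 to 48572789, reverse strand) overlap those of *Lrrc61* on the opposite strand by 892 bases, and with the strand setting of the counting unknown here, reads of the pair may not be separated.

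**Figure D2:**
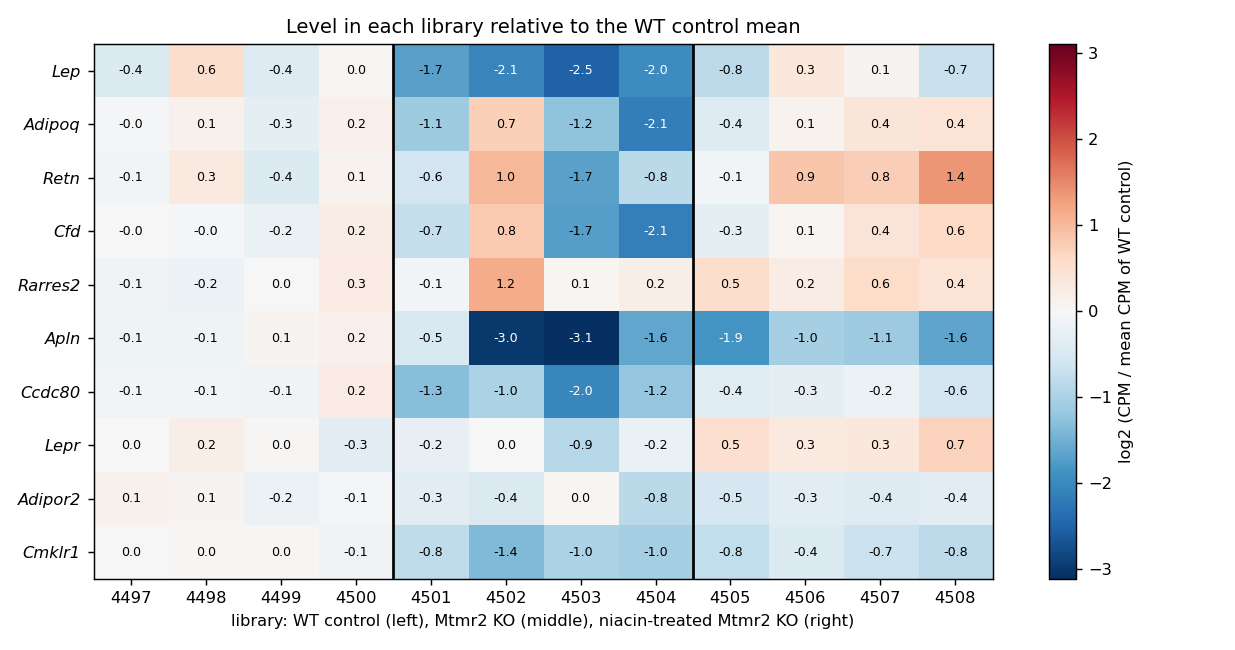
Colour and printed value give the log2 ratio of each library's CPM to the mean CPM of the WT control group, for 10 genes (rows) and 12 libraries (columns), with black lines between WT control (4497 to 4500), Mtmr2 KO (4501 to 4504) and niacin-treated Mtmr2 KO (4505 to 4508). Lep and Ccdc80 are blue in all 4 Mtmr2 KO libraries, while Adipoq, Retn and Cfd are blue in 3 of them and red in 4502.

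Of the receptors, *Cmklr1* differed most. The chemerin receptor was at 33.5, 34.2, 33.7 and 30.8 CPM in WT control, 19.2, 12.8, 16.6 and 16.2 CPM in *Mtmr2* KO and 19.3, 24.6, 20.8 and 18.7 CPM with niacin. WT control libraries were nearly equal and lay above all 8 mutant libraries, and the mutant groups overlapped. Its log2 fold change from WT control was −1.03 (SE 0.14) in *Mtmr2* KO and −0.66 (SE 0.13) with niacin, with 0.36 (SE 0.14) between the mutant groups. Without 4502 the first was −0.93 and without 4503 it was −1.04. *Cmklr1* (ENSMUSG00000042190) is on the reverse strand of chromosome 5, from 113612354 to 113650426.

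*Lepr*, the leptin receptor, showed another order, with its highest levels under niacin. It was at 35.6, 40.7, 35.9 and 27.9 CPM in WT control, at 29.5, 35.6, 18.9 and 30.5 CPM in *Mtmr2* KO and at 50.5, 43.1, 44.0 and 57.3 CPM with niacin. The niacin-treated libraries lay above both other groups, which overlapped. The log2 fold change was −0.29 (SE 0.18) in *Mtmr2* KO versus WT control, 0.77 (SE 0.18) with niacin versus *Mtmr2* KO and 0.48 (SE 0.18) with niacin versus WT control. Without 4502 these were −0.42, 0.88 and 0.46, and without 4503 −0.14, 0.61 and 0.48. The second was not called, but would be without 4502, where 23.6% of all genes were called against 1.43% with all libraries. *Lepr* (ENSMUSG00000057722, chromosome 4 from 101717404 to 101815352) has 7 annotated transcripts, and counts per gene do not separate the long signalling receptor from the short forms.

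*Adipor2*, an adiponectin receptor, was at 297, 287, 241 and 261 CPM in WT control, 217, 199, 281 and 151 CPM in *Mtmr2* KO and 188, 218, 204 and 211 CPM with niacin. The niacin-treated libraries lay below all WT control libraries, at a log2 fold change of −0.40 (SE 0.17). *Mtmr2* KO overlapped WT control only through 4503, the library with *Mtmr2* in the WT control range. With that library the log2 fold change was −0.36 (SE 0.17), and without it −0.53 with no overlap. Without 4502 it was −0.33. *Adipor1*, which is no member of the list but encodes the other adiponectin receptor, was at 188 to 204 CPM in WT control, 167 to 272 CPM in *Mtmr2* KO and 133 to 198 CPM with niacin, and all 3 groups overlapped.

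**Figure D3:**
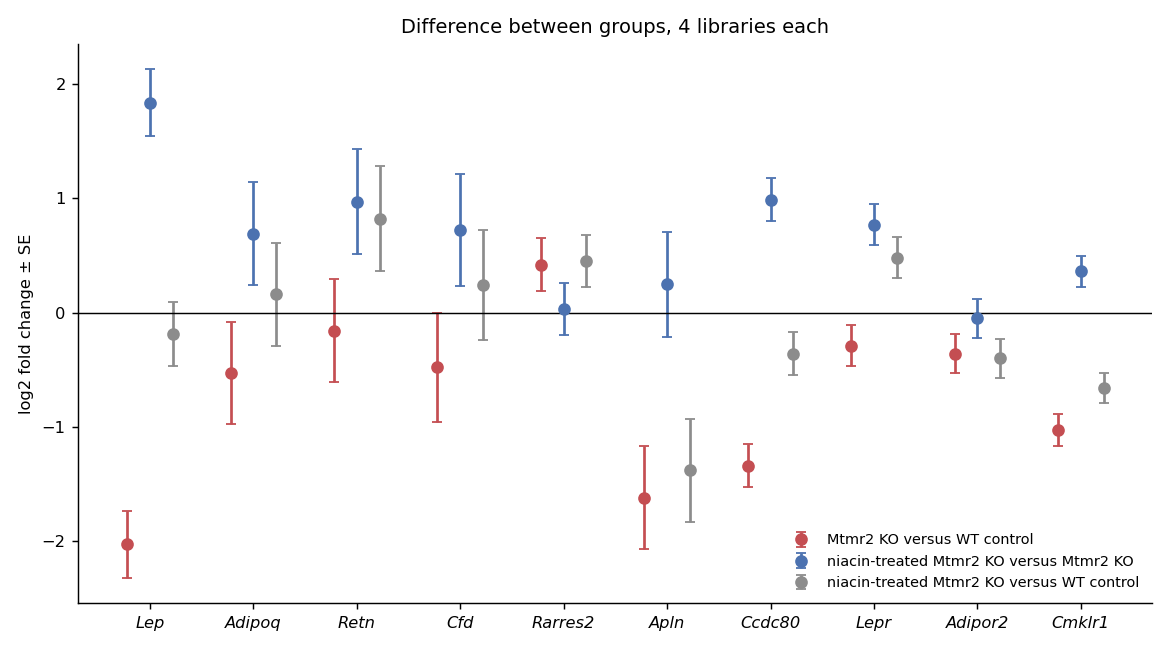
Log2 fold changes of the 10 genes with their standard errors (bars) in the 3 comparisons, each between 4 and 4 libraries. Lep and Ccdc80 lie below 0 in Mtmr2 KO versus WT control (−2.03 and −1.34) and above 0 with niacin versus Mtmr2 KO (1.84 and 0.99), whereas Apln and Cmklr1 lie below WT control in both mutant groups.

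Counted over the list, *Mtmr2* KO had the lower mean in 9 of 10 genes when set against WT control, and the median log2 fold change was −0.50 against 0.03 over all genes tested. Of the 10, 3, namely *Lep*, *Ccdc80* and *Cmklr1*, were called lower by edgeR at an adjusted p under 0.05 and none higher. Of all genes 0.22% were called lower and 0.0464% higher. With *Apln*, 4 of 10 did not overlap, beside 5.46% of all genes lower without overlap, 3.85% higher and 9.32% either way. In niacin-treated versus *Mtmr2* KO, 9 of 10 were higher, with a median of 0.70 against −0.04 over all genes. Of them 2, *Lep* and *Ccdc80*, were called higher, beside 0.695% of all genes called higher and 0.73% lower. With *Lepr* 3 did not overlap, beside 3.6% higher, 3.4% lower and 7.01% either way over all genes. In the comparison of niacin-treated *Mtmr2* KO with WT control edgeR called none of the 10 and no other gene (0%), although 4 of the 10 and 4254 genes had an unadjusted p under 0.05, and edgeR on these 2 groups alone called 7 of the 10 and 5586 genes. In that comparison 1 of the 10, *Lepr*, was higher without overlap and 4, *Apln*, *Ccdc80*, *Adipor2* and *Cmklr1*, were lower, beside 14.9% higher, 16.6% lower and 31.4% either way over all genes. Since these comparisons chose the genes, the counts are no evidence about them, and since the first and second comparisons share the *Mtmr2* KO libraries, a value low in those libraries moves them in opposite directions.

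Levels of different genes were compared per kilobase of exon. In WT control the order was *Cfd* (1490 ± 189 CPM per kilobase, SD, n = 4), *Adipoq* (194 ± 26.5), *Ccdc80* (57.2 ± 7.18), *Adipor2* (45.4 ± 4.24), *Retn* (27.7 ± 5.80), *Rarres2* (26.0 ± 3.60), *Lep* (15.7 ± 5.34), *Cmklr1* (9.70 ± 0.44), *Lepr* (4.97 ± 0.752) and *Apln* (2.72 ± 0.281). Neighbours in this order overlapped only for *Retn* with *Rarres2* and for *Rarres2* with *Lep*. With the longest transcript as the length, *Adipor2* came before *Ccdc80*, at 64.9 against 60.1 CPM per kilobase. Adipsin RNA ranked 10 of 17147 genes by level per kilobase in WT control, 22 in *Mtmr2* KO and 14 with niacin. *Lep* ranked 2933, then 8243, then 3261, and among the 10 genes it moved from place 7 to place 9 in *Mtmr2* KO, at 3.86 ± 0.879 CPM per kilobase, where its libraries overlapped those of *Lepr* at 4.06 ± 0.996.

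The makeup of the fat-cell hormones thus differed between single *Mtmr2* KO libraries. *Cfd* kept close to *Adipoq*, at 458% to 544% of its CPM in WT control, 368% to 653% in *Mtmr2* KO and 497% to 587% with niacin. *Lep* was 15.1% to 26.6% of *Adipoq* in WT control. In *Mtmr2* KO it was 13% in 4501, 2.86% in 4502, 8.08% in 4503 and 22.5% in 4504, and with niacin 9.01% to 23%, so that 1 *Mtmr2* KO library had a WT control ratio and the other 3 lay below it. *Retn* was 15% to 18.6% of *Adipoq* in WT control and 20.3% to 31.5% with niacin, without overlap, and 12.2% to 40.3% in *Mtmr2* KO. *Rarres2* was 20.7% to 31.9% of *Adipoq* in WT control and 34.7% to 130% in *Mtmr2* KO, without overlap. These ratios compare CPM of the same pair of genes between libraries, not levels between genes.

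Other genes of white fat cells were lower in *Mtmr2* KO as well. Of 18 white adipocyte markers, 17 had the lower mean in *Mtmr2* KO, and the median log2 fold change was −1.22. Of them 13 lay below WT control without overlap, beside 5.46% of all genes. The 2 called lower, beside 0.22% of all genes, were *Plin1* and *Trarg1*, which fell by 1.84 and 1.67 on the log2 scale (each with adjusted p = 0.0448 by edgeR). The markers were chosen with earlier results of these data known, and *Plin1* and *Trarg1* were named after their values were seen. Their counts are therefore a description. With niacin 16 of 18 were higher than in *Mtmr2* KO, at a median of 0.62, and 15 of 18 were lower than in WT control, at −0.60. None was at 0 in any library. Their sum was 7081 to 11751 CPM in WT control, 2349 to 5175 CPM in *Mtmr2* KO and 4123 to 9439 CPM with niacin. *Scd1*, a lipid desaturase that Schwann cells also express, made 44.6% to 61.6% of this sum in WT control but 20.5% and 17.1% in 4502 and 4503. Without it the sums were 3537 to 4511 CPM in WT control and 2511, 2992, 3702 and 996 CPM in *Mtmr2* KO, where 4503 entered the WT control range. *Plin1*, which coats the lipid droplet of fat cells, was at 157 to 242 CPM in WT control, 26 to 85.3 CPM in *Mtmr2* KO and 69.1 to 148 CPM with niacin. *Lep* as a share of the full marker sum was 0.462% to 0.761% in WT control and 0.205% to 0.58% in *Mtmr2* KO, with overlap. In RNA of a whole nerve, fewer fat cells and less RNA of these genes per cell cannot be told apart. Markers of brown fat were low throughout, at 46.6 to 80.8 CPM in sum, with *Ucp1* and *Elovl3* at 0 in some libraries.

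Library by library, *Adipoq*, *Cfd* and *Retn* varied together, less closely when 4502 was left out. Pearson's r of log2 CPM over the 12 libraries, after the mean of each group was removed, was 0.96 for *Adipoq* with *Cfd*, 0.87 for *Retn* with *Cfd* and 0.82 for *Adipoq* with *Retn*. Without 4502, over 11 libraries, these were 0.86, 0.63 and 0.46, while *Apln* with *Ccdc80* was at 0.77 and *Adipoq* with *Adipor2* at 0.73. *Lep* had an r of 0.13 with *Adipoq* and 0.14 with *Cfd*, or 0.26 and 0.26 without 4502. With *Retn* it had 0.35, and 0.56 without 4502, above the 0.46 between *Adipoq* and *Retn*. *Rarres2* with *Adipoq* changed from 0.71 to −0.30 when 4502 was left out, so that this relation rested on that library. *Apln* with *Cmklr1* was 0.67, and 0.54 without it. *Rarres2* and its receptor *Cmklr1* had an r of −0.86, and −0.73 without it. With the log2 sum of white adipocyte markers, over 12 libraries, r was 0.44 for *Lep*, 0.40 for *Adipoq* and −0.30 for *Ccdc80*. Before group means were removed these were 0.81, 0.63 and 0.64. All values of a library share its scaling and its RNA, and these correlations are a description.

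**Figure D4:**
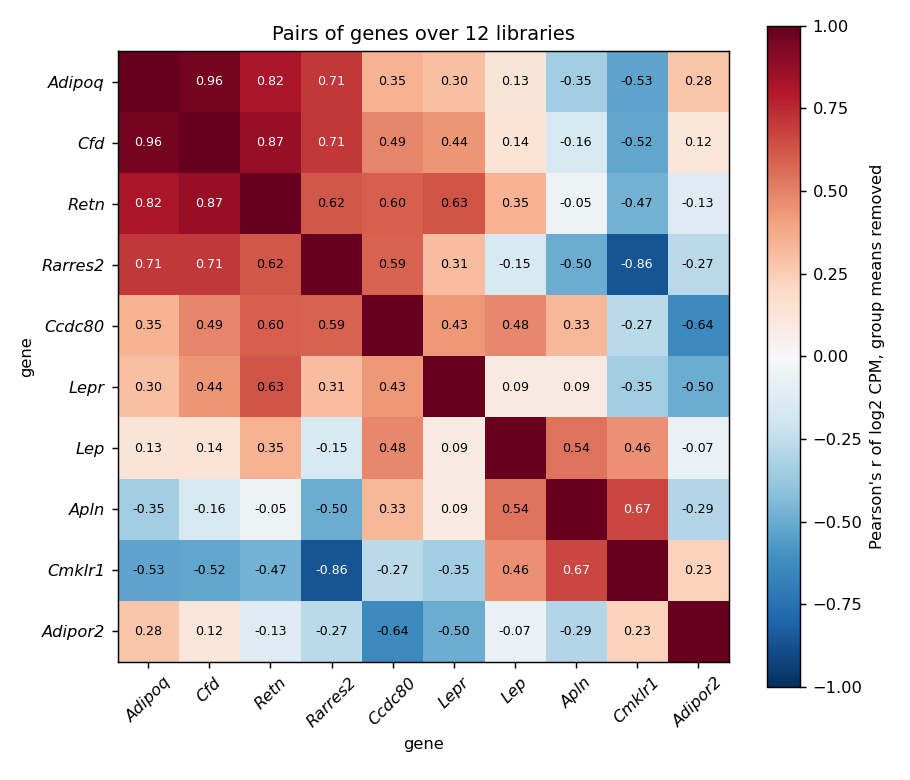
Pearson's r of log2 CPM between pairs of the 10 genes over 12 libraries after the group means were removed, from −1 (blue) to 1 (red), with r printed in each cell. Adipoq, Cfd and Retn form a block of 0.82 to 0.96 (0.46 to 0.86 without 4502), Lep has an r of 0.13 with Adipoq, and Rarres2 and Cmklr1 have −0.86.

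For each gene the 3 other tested genes most like it were sought by the same measure, r with group means removed over 12 libraries. That r is followed here by r over all values. Library 4502 was highest of its group in *Adipoq* (443 CPM), *Cfd* (2396 CPM), *Retn* (89.9 CPM) and *Rarres2* (154 CPM). Its part in these likenesses was not tested. As the highest r among all tested genes, they are a description and no evidence of shared regulation. *Lep* was most like *6430571L13Rik* (0.92 and 0.61), *Foxi2* (0.88 and 0.15) and *D10Jhu81e* (0.88 and 0.75). *Adipoq* was most like *Maob* (0.99 and 0.98), *F630028O10Rik* (0.98 and 0.70) and *Dram1* (0.98 and 0.97). *Cfd* was most like *Car3* (0.99 and 0.99), *Hibch* (0.98 and 0.92) and *G0s2* (0.97 and 0.94), of which *Car3* and *G0s2* are abundant in fat cells. For *Retn* they were *Ifi27*, *AW112010* and *Clybl*, for *Rarres2* *Atp6v1e1*, *Sdf2* and *Sec62*, for *Apln* *Spry4*, *Shf* and *Gga2*, and for *Ccdc80* *Cox7a1*, *Sh3kbp1* and *Mrps6*, all at 0.96 to 0.99. Over all values these were 0.95 to 0.97 for *Retn*, 0.98 to 1.00 for *Rarres2*, 0.88 to 0.95 for *Apln* and 0.62 to 0.69 for *Ccdc80*. For the receptors they were *Ccne1*, *Samd4* and *Gm10544* for *Lepr* (0.91 to 0.93), *Ttc41*, *Parvg* and *Plin4* for *Adipor2* (0.93 to 0.94), and *Gramd4*, *Stat5b* and *Stard3* for *Cmklr1* (0.97 to 0.98), with 0.00 to 0.90, 0.23 to 0.82 and 0.03 to 0.83 over all values. *Plin4*, a lipid droplet gene, shared with *Adipor2* a high value in 4503, where it was at 1183 CPM against 41 to 238 CPM in the other *Mtmr2* KO libraries.

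Partners of these hormones and further secreted factors of fat cells were taken from 6 lists of 66 genes, of which 65 were found and 57 tested. In *Mtmr2* KO versus WT control 1 of the 57 rose and none fell at an adjusted p under 0.05 (edgeR quasi-likelihood test, Benjamini-Hochberg over 17257 genes). Of the 57, 11 had an unadjusted p under 0.05, beside 2976 of the 17257 genes. With niacin versus *Mtmr2* KO none rose and 2 fell, and 24 had an unadjusted p under 0.05, beside 3472 of all genes. Over all genes 0.267% and 1.43% were called in these comparisons. With niacin versus WT control edgeR called none of them and no gene at all (0%), and 19 had an unadjusted p under 0.05, beside 4254 of all genes.

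The gene that rose was *Lcn2*, which encodes lipocalin 2, an iron-binding protein of neutrophils and inflamed tissues that fat cells also secrete. It was at 2.15, 4.42, 2.90 and 6.25 CPM in WT control, 31.8, 44.2, 51.0 and 5.29 CPM in *Mtmr2* KO and 1.47, 2.08, 3.02 and 4.76 CPM with niacin. *Mtmr2* KO library 4504 remained within the WT control range, and the niacin-treated libraries lay below all 4 *Mtmr2* KO libraries. The log2 fold change was 3.07 (SE 0.57, adjusted p = 0.0457 by edgeR) in *Mtmr2* KO versus WT control and −3.54 (SE 0.59, adjusted p = 0.0383 by edgeR) with niacin versus *Mtmr2* KO, 2 comparisons that share the *Mtmr2* KO libraries. Over 19 alternatives the first was called in 7, with adjusted p from 0.000299 to 0.156, and the second in 11, from 1.52e-05 to 0.174. The first call was lost without 4502 (adjusted p = 0.052 by edgeR), without 4503 (0.0834) and also without any WT control library, 4506, 4507 or 4508. The second was lost without 4503 (adjusted p = 0.0686 by edgeR), any WT control library, 4506 or 4507. Over all genes these settings called 0% to 0.446% in the first comparison and 0% to 0.0746% in the second. Of 8 neutrophil markers 5 were tested, and all 5 had a higher mean in *Mtmr2* KO, none of them called. Their sum was 0.762 to 1.64 CPM in WT control, 16.8, 18.2, 6.41 and 1.73 CPM in *Mtmr2* KO 4501 to 4504 and 1.52 to 11.6 CPM with niacin, and *Ly6g*, *Camp*, *Ngp*, *Ltf* and *Elane* were at 0 in some libraries. Their part in the change of *Lcn2* was not tested.

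*Socs3*, which encodes a suppressor of cytokine signalling that leptin induces and that restrains its receptor, was the other gene that fell with niacin. It was at 21.2, 16.4, 29.5 and 26.3 CPM in *Mtmr2* KO and at 11.2, 13.2, 13.3 and 16.0 CPM in niacin-treated *Mtmr2* KO, without overlap, and at 15.6 to 21.4 CPM in WT control, which overlapped both. The log2 fold change with niacin versus *Mtmr2* KO was −0.80 (SE 0.18, adjusted p = 0.0486 by edgeR). It was called in 6 of 19 alternatives, with adjusted p from 0.00421 to 0.19, and it was lost when any library but 4502 was left out (adjusted p from 0.0635 to 0.166 by edgeR). With those libraries left out in turn, 0% to 2.87% of all genes were called. Of the 14 genes of leptin receptor signalling, 11 had a lower mean with niacin than in *Mtmr2* KO, at a median log2 fold change of −0.27, and 9 had a lower mean in *Mtmr2* KO than in WT control, at −0.04. The most abundant of them per kilobase were *Leprot*, at 116 ± 6.11 CPM in WT control, 113 ± 9.55 CPM in *Mtmr2* KO and 134 ± 15.1 CPM with niacin, and the phosphatase gene *Ptpn11*, at 289 ± 14.0, 348 ± 27.9 and 322 ± 37.7 CPM in the same order (SD, n = 4).

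*Aplnr*, the apelin receptor gene, was low in *Mtmr2* KO, as *Apln* was, and like *Apln* highest of that group in 4501. It was at 19.7, 11.5, 16.4 and 12.8 CPM in WT control, 6.55, 1.12, 3.46 and 2.21 CPM in *Mtmr2* KO and 6.91, 11.5, 9.69 and 3.95 CPM with niacin. All *Mtmr2* KO libraries lay below all WT control libraries, at a log2 fold change of −2.16 (SE 0.44), which did not pass the test (adjusted p = 0.0526 by edgeR) but passed it in 5 of 19 alternatives. Without 4502 this fold change was −1.88 and without 4503 it was −2.17. With niacin versus *Mtmr2* KO it was 1.24 (SE 0.43, adjusted p = 0.138 by edgeR) with overlap. Of the 14 genes of adiponectin receptor signalling none was called in any comparison, with median log2 fold changes of −0.02, 0.00 and −0.07 in the 3 comparisons, and *Adipor1* and *Gstk1* were its most abundant genes per kilobase. None of the 8 genes of the alternative complement pathway in which *Cfd* acts was called either. *C3*, its central component, was at 433 ± 86.3, 296 ± 144 and 292 ± 67.8 CPM in WT control, in *Mtmr2* KO and with niacin. Among partners of chemerin and apelin, *Aplnr* was the most abundant gene per kilobase, followed by *Ccrl2*, which binds chemerin without signalling. In the remaining lists the most abundant genes were the resistin relative *Retnla* at 67.9 ± 23.4, 39.0 ± 34.3 and 87.5 ± 16.9 CPM, the proposed resistin receptor *Cap1*, *Metrnl*, and *Sfrp5*, a secreted inhibitor of WNT ligands, at 545 ± 89.2, 431 ± 164 and 275 ± 68.7 CPM.

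**Figure D5:**
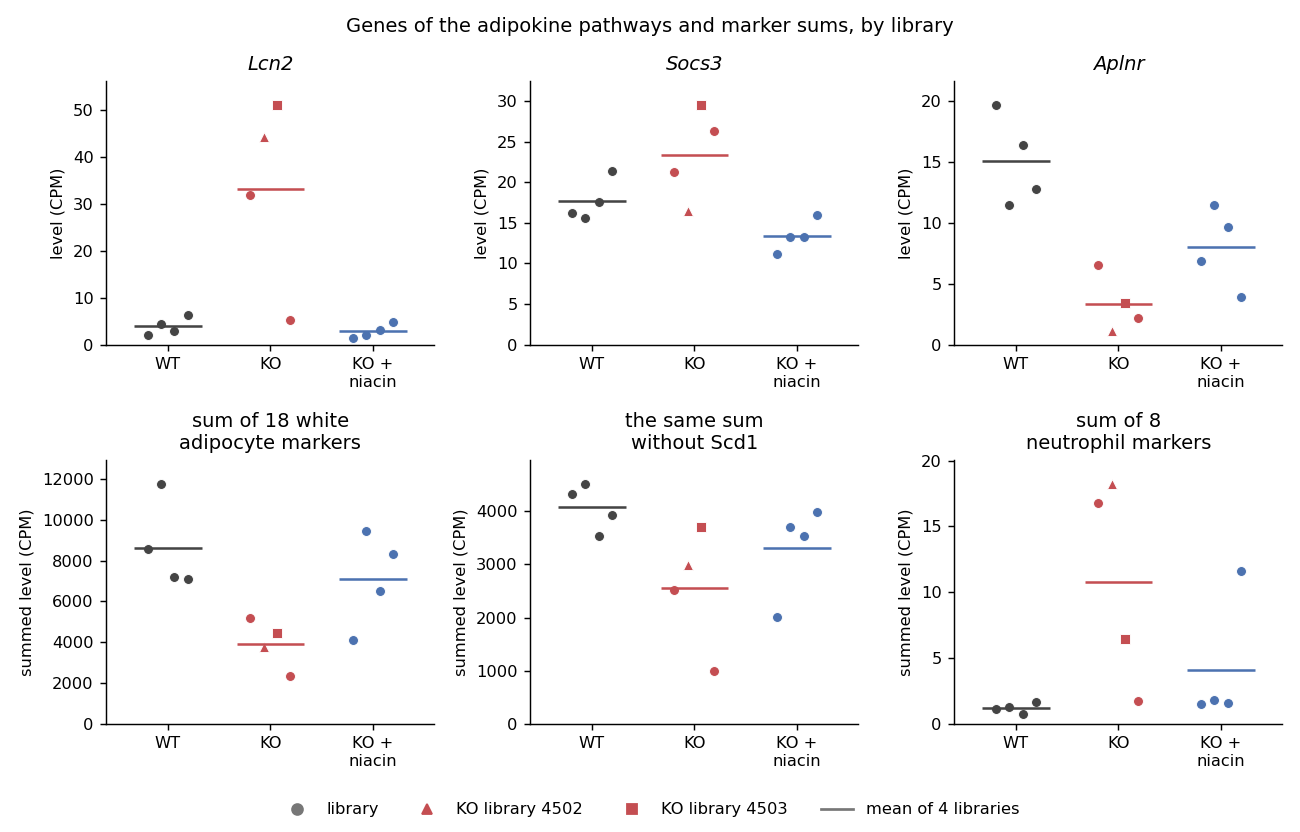
Upper panels give the level of Lcn2, Socs3 and Aplnr and lower panels the summed level of white adipocyte markers, of the same markers without Scd1 and of neutrophil markers, in CPM on linear axes from 0, each point 1 library and each line the mean of 4. Lcn2 was at 31.8 to 51.0 CPM in 3 Mtmr2 KO libraries and at 6.25 CPM or less elsewhere, and the adipocyte sum of Mtmr2 KO overlaps WT control only when Scd1 is left out.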

How the data were processed

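RNA of 1 sciatic nerve per mouse was sequenced after poly(A) selection as paired reads. The authors mapped the reads with STAR to GRCm38 and deposited whole-number read counts per Ensembl gene without normalization. Unknown are the release of STAR, how reads were assigned to genes, with which annotation and whether by strand (not given in the sources used here). Deposited tables of 3 comparisons, made by the authors with DESeq2, hold fold changes and p-values, and only their symbols were used. All count columns were used, with 0 left out. The members and all gene lists were chosen with earlier results of these data known.

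CPM were computed with edgeR 4.0.16 (R 4.3.3) from library totals scaled by TMM, and log2 CPM with a prior count of 2. After filterByExpr by group, 1 quasi-likelihood model over 12 libraries without covariates gave 3 two-sided comparisons with Benjamini-Hochberg adjustment, and an adjusted p under 0.05 is a call. The SE is the log2 fold change divided by the square root of F. Groups do not overlap when every library of one exceeds every library of the other. Lengths are unions of exons in GENCODE M21.

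Named were the 10 members, pathway genes called in any comparison, the 2 most abundant per kilobase of each list, and the 3 genes most like each member. A gene that this rule names is not reported here. *Plin1*, *Trarg1*, *Scd1*, and *Plin4* were named after their values were seen. Alternatives were DESeq2 1.42.0 on all or only 2 groups, limma 3.58.1 (voom with sample quality weights), DESeq2 size factors, edgeR on only 2 groups, no filter, log2 CPM of *Xist* as a covariate, library totals without TMM factors, the longest transcript as length, and each library left out in turn. The marker sum without *Scd1* and the correlations and means without 4502 or 4503 were chosen after seeing the data. P-values measure the spread between mice.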

Additional observations from a re-analysis of the deposited data

Results flagged for a closer look

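Among 33 sets of 4 libraries (the 10 genes and *Mtmr2* in each group), 3 held a library whose gap to the nearest other exceeded Dixon's limit for 4 values as a share of the range of the set, which chance passes in about 1 of 20 sets. *Adipoq* was at 443 CPM in *Mtmr2* KO library 4502 and at 60.4 to 125 CPM in the other 3, with a gap of 0.831 of the range. *Rarres2* was at 154 CPM in the same library and at 64.6 to 78.7 CPM in the other 3, with a gap of 0.842. *Ccdc80* was at 292 CPM in WT control library 4500 and at 228 to 233 CPM in the other 3, with a gap of 0.925. Without 4502 the log2 fold change of *Adipoq* in *Mtmr2* KO versus WT control was −1.43 in place of −0.53, and that of *Rarres2* 0.06 in place of 0.42.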

How the results depend on the processing

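No paired analysis was possible because the groups share no replicate numbers. In *Mtmr2* KO versus WT control 3 members were called (0.267% of all genes), and with edgeR on only the 2 groups 0 (0%), whereas DESeq2 on 12 libraries, DESeq2 on 2 groups, limma-voom and no filter gave 4 each (3.71%, 2.39%, 0.626% and 1.01%). Of the other pathway genes 1 was called, against 5 with DESeq2 on all 12 libraries, 4 with DESeq2 on 2 groups, 0 with edgeR on 2 groups, 3 without the filter and 0 with *Xist* as a covariate (0.0695% of all genes). With niacin versus *Mtmr2* KO 2 members were called (1.43% of all genes), against 0 with edgeR on 2 groups (0%), 6 with limma-voom (11.6%) and 1 with *Xist* (0.29%). Of the other pathway genes 2 were called, against 10, 5, 0, 13, 8 and 1 with DESeq2 on 12 libraries, DESeq2 on 2 groups, edgeR on 2 groups, limma-voom, no filter and *Xist*. In the same order 6.22%, 2.56%, 0%, 11.6%, 1.69% and 0.29% of all genes were called. With niacin versus WT control 0 members were called, against 2, 7, 7, 6 and 1 with DESeq2 on 12 libraries, DESeq2 on 2 groups, edgeR on 2 groups, limma-voom and no filter, and 0 other pathway genes, against 7, 26, 23, 28 and 2. Those settings called 7%, 36.9%, 33.9%, 42.4% and 0.918% of all genes. With 1 library left out in turn, members called ranged from 0 to 4, 0 to 6 and 0 to 3 in the 3 comparisons and other pathway genes from 0 to 4, 0 to 28 and 0 to 18. The shares of all genes called ranged from 0% to 2.6%, 0% to 23.6% and 0% to 21.6%. No member was called in *Mtmr2* KO versus WT control without any 1 of 4497 to 4500, 4507 or 4508, nor with niacin versus *Mtmr2* KO without any 1 of 4497 to 4500, 4503, 4506 or 4507. Over all genes those settings called 0% in the first comparison and 0% to 0.0746% in the second, so that the loss was not particular to the members. The highest counts with niacin versus *Mtmr2* KO, 6 and 28, were those without 4502, where 23.6% of all genes were called, as was the highest count of members with niacin versus WT control, 3, beside 21.6%. The causes were not tested.

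Of the 190 alternative log2 fold changes of members per comparison, 2, 9 and 2 changed sign. With niacin versus WT control *Lep* was at 0.08 with limma-voom and 0.05 without 4498 (−0.45 to 0.05 with 1 library left out). In *Mtmr2* KO versus WT control *Retn* was at 0.12 without 4503 and 0.01 without 4504 (−0.97 to 0.12). With niacin versus *Mtmr2* KO *Rarres2* was at −0.11, −0.07, −0.04, −0.00 and −0.01 without 4501, 4503, 4504, 4505 and 4507 (−0.11 to 0.37), *Apln* at −0.02 and −0.04 without 4502 and 4503 (−0.04 to 1.05), and *Adipor2* at 0.13 with limma-voom and 0.12 without 4503 (−0.17 to 0.12). *Lep* ran from −2.17 to −1.77 in *Mtmr2* KO versus WT control and from 1.59 to 2.00 with niacin versus *Mtmr2* KO, and was called in 11 of 19 alternatives in each. *Ccdc80* and *Cmklr1* ran from −1.48 to −1.17 and from −1.12 to −0.93 in *Mtmr2* KO versus WT control and were called in 12 of 19 each. Over these 19 alternatives 0% to 3.71% of all genes were called in *Mtmr2* KO versus WT control and 0% to 23.6% with niacin versus *Mtmr2* KO. Depth limits *Apln* most, at 24 counts in its lowest library.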

Other observations

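Skeletal muscle markers set apart 2 niacin-treated libraries. Their sum was 3671 and 3675 CPM in 4506 and 4507, 87.7 and 121 CPM in 4505 and 4508 and 35.5 to 84.6 CPM in the other 8 libraries. Of the 10 markers 6 were called higher with niacin than in *Mtmr2* KO, beside 0.695% of all genes. *Lep* was at 66.2 and 55.9 CPM in 4506 and 4507 and at 30.1 and 32.4 CPM in 4505 and 4508, whereas *Ccdc80* was at 199 and 217 CPM against 189 and 162 CPM and *Lepr* at 43.1 and 44.0 CPM against 50.5 and 57.3 CPM. The part of muscle RNA in these values was not tested. Over all libraries the sums were 360 to 672 CPM for macrophage markers, 7677 to 14876 CPM for fibroblast markers and 834 to 1760 CPM for vascular smooth muscle markers.

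The female library had the highest *Lep* value of the WT control and of the niacin-treated group, at 77.7 CPM in 4498 and 66.2 CPM in 4506, but not of *Mtmr2* KO, where 4502 had 12.7 CPM between 9.17 and 16.3 CPM. With 1 female per group this was not tested.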
